A study of Homo sapiens with 2 samples.

Results

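The sites described here are all peaks that the authors' list of MYC binding places on chromosome 7, 1050 of 17659 peaks (5.95%). The rule that picks them is the chromosome alone and uses no measured value. The list comes from 1 ChIP-seq library (chromatin immunoprecipitation followed by sequencing) of TET21. These human cells were cloned from the neuroblastoma line SH-EP and carry a MYCN transgene that doxycycline turns off. The cells expressed wild-type MYC (WT-MYC in the labels), were kept for 7 days in 1 µg/mL doxycycline, and were fixed for 10 min in 1% formaldehyde. An in-house rabbit polyclonal antibody (2 µg) was used. The comparison sample is 1 input library of the same cells, so WT-MYC and doxycycline are common to both libraries. Whether the antibody tells WT-MYC from the MYC of the parental cells is not stated in the labels. With 1 library of each kind there is no replicate error, and the 95% intervals below cover counting error only and treat neighbouring peaks as independent.

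MYC is a transcription factor that pairs with MAX and binds DNA at E-boxes, of which CACGTG is the preferred form, mostly at the starts of active genes. It is known for raising genes of ribosome production, translation, metabolism and cell division, and its relative MYCN drives many neuroblastomas.

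The preferred MYC motif is shown first, as it stands in promoters of chromosome 7, since no sequence of the build used for the peaks was at hand. RefSeq promoter windows (GRCh38.p14, from 250 bases before to 50 after a gene's start) were searched for CACGTG, which reads the same on both strands. The motif was present in 92 of 1118 windows of coding genes on chromosome 7 (8.23%, Wilson 95% interval 6.76 to 9.99). These windows belong to 799 of its 938 coding genes. Over all chromosomes of the table it was present in 1851 of 22199 windows (8.34%). The short arm (7.91%) and the long arm (8.38%) had overlapping intervals, 5.53 to 11.2 and 6.61 to 10.6. Of the gene lists drawn up for this chromosome, the motif was present for 4 of 10 HOXA cluster genes with a window, 4 of 17 genes of ribosome and RNA production, 3 of 15 of cell cycle and replication, 2 of 16 of chromatin and splicing, 1 of 16 mitochondrial genes, 1 of 10 of nucleotide and amino acid metabolism, 1 of 14 of matrix and mesenchymal identity, 1 of 15 of receptors and growth signalling, and 2 of 42 tissue-restricted genes. The list counts are per gene, and a gene can have more than 1 window. The share per gene over all genes was not computed, so these counts cannot be set against the shares of windows above. No peak was matched to these promoter sequences, because the peaks are on GRCh37 and no annotation or sequence of that build was used. One stretch a list is shown, to give the motif in its setting. It is the first gene by alphabet whose E-box, with 15 bases on each side, ends before the gene's start, and 8 of the 9 lists have one. Each line reads 5′ to 3′ on the gene's strand with the E-box in capitals, and gives the distance from the first base of the E-box to the start:
HOXA3, a homeobox factor (minus strand, 51 bases, GRCh38.p14 chr7:27118388-27118423): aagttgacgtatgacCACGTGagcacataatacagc
ANLN, a cytokinesis protein (plus strand, 103 bases, GRCh38.p14 chr7:36389744-36389779): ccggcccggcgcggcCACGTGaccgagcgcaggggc
CUX1, a homeodomain transcription factor (plus strand, 42 bases, GRCh38.p14 chr7:101817569-101817604): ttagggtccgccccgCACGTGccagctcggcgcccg
MRPS33, a mitochondrial ribosomal protein (minus strand, 101 bases, GRCh38.p14 chr7:141014760-141014795): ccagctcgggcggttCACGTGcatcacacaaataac
NUDT1, which clears oxidised nucleotides (plus strand, 99 bases, GRCh38.p14 chr7:2249197-2249232): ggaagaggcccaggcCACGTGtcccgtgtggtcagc
PRKAR2B, a regulatory subunit of protein kinase A (plus strand, 137 bases, GRCh38.p14 chr7:107044553-107044588): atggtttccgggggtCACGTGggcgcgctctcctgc
AIMP2, a scaffold of the tRNA synthetase complex (plus strand, 75 bases, GRCh38.p14 chr7:6009475-6009510): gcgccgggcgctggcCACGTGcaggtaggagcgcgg
HEPACAM2, an adhesion protein of the immunoglobulin family (minus strand, 170 bases, GRCh38.p14 chr7:93232348-93232383): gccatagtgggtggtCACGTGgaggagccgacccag
All coordinates from here on are those of the peak list, GRCh37 and 1-based, and cannot be set against the positions of these lines. For the same reason the sites and windows below are named by position only.

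The median width of the MYC sites was higher on chromosome 7 than on each of the 22 other chromosomes compared, but only just above that of chromosome 17. It was 237 bp (quartiles 178 and 333 bp, range 142 to 1160 bp), and together the peaks covered 292 kb. The median was 225 bp over the other chromosomes together and 236 bp on chromosome 17, the next, and no interval was computed for these medians. On chromosome 7, 81 peaks were wider than 500 bp, against 1115 of 16582 on the other chromosomes. This share was slightly higher on chromosomes 1 (150 of 1864), 12 (67 of 859), 13 (30 of 379) and 17 (95 of 1198). Peaks wider than 1000 bp numbered 5, 4 of these on the short arm. The widest, chr7:807264-808423, was also the second most significant of the chromosome. The authors' fold is the enrichment at the summit over the peak caller's local background, with 1 added to both counts before they are divided. It had a median of 6.40 (quartiles 5.18 and 8.39, range 3.02 to 59.88). The pileup, meaning the ChIP fragments that overlie the summit, recovered here from the deposited fold and p, had a median of 15 (quartiles 12 and 21). The background, the number of fragments expected there, had a median of 1.32. Its own counting error was not estimated, and the intervals given for pileups do not include it. The fold was at least 10 at 192 peaks (18.3%, Wilson 95% interval 16.1 to 20.7), against 15.4% of the whole list. It was at least 20 at 20 peaks (1.90%, 1.24 to 2.92), against 1.43% of the whole list.

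The weakest members lay at the limit of what was called. The lowest significance of the chromosome was shared by chr7:44122067-44122248 on the short arm and chr7:83671671-83671840 on the long arm, where the pileup was 10 and the background 2.64 (fold 3.02, −log10 p 4.005). No peak of the chromosome with a pileup under 6 was called. The second of these sites was also remote, with its nearest neighbour 879 kb away. In all, 123 peaks (11.7%) had no other summit within 100 kb, against 13.0% on the other chromosomes. Another summit lay within 1 kb for 323 of the 1050 peaks, against 4927 of 16582 on the other chromosomes.

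Binding was spread unevenly along the chromosome. In windows of 1 Mb, counted by summit from the start of the chromosome, the median was 4 peaks and the mean 6.60. Of 159 windows, 29 had no peak, 52 had 1 to 4, 38 had 5 to 9, 29 had 10 to 19, and 11 had 20 or more. Those 11 windows held 293 peaks (27.9%), and 26 windows were enough to hold 50% of the peaks. The 16 densest windows, 10% of all, held 36.0% of the peaks. Of the other chromosomes, 11 had a higher and 11 a lower share by the same rule (range 25.4% on chromosome 19 to 47.9% on X). Empty windows made up 18.2% against a median of 24.6% over the other chromosomes. Windows were counted from the start of each chromosome, so both comparisons include any stretch before the first peak. On chromosome 22, for example, there were 52 windows for a span of 35.0 Mb between the outermost peaks.

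**Figure D1:**
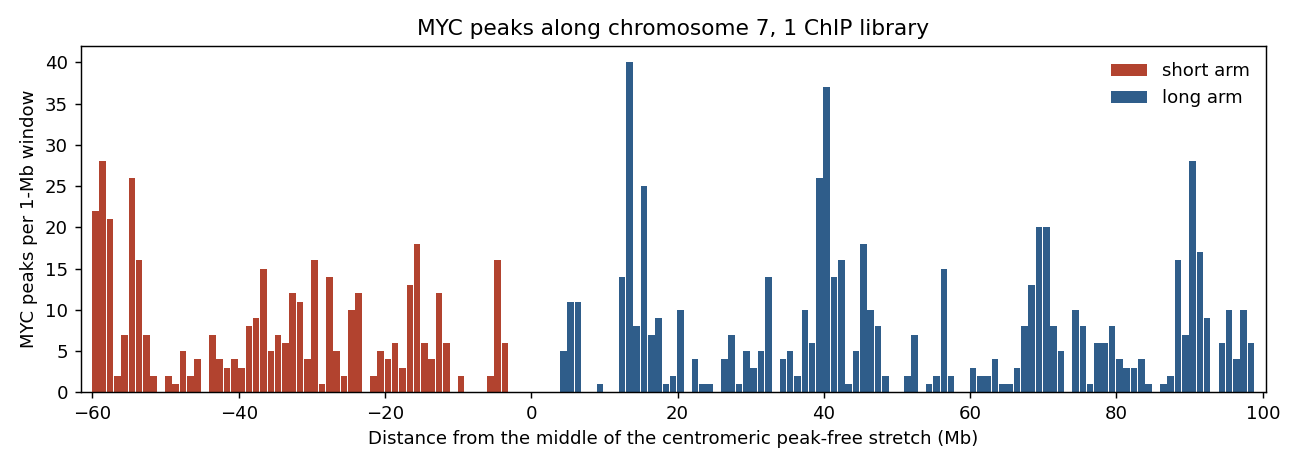
Number of MYC peaks in each 1-Mb window of chromosome 7, against the distance of the window's centre from the middle of the centromeric peak-free stretch; red bars are the short arm, blue bars the long arm. The tallest bars, 40 and 37 peaks, are on the long arm, and the end of the short arm has 3 windows in a row with 21 to 28 peaks.

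The most crowded window was 73 to 74 Mb on the long arm with 40 peaks (95% Poisson interval 28.6 to 54.5), which ranked 18 among the 1-Mb windows of the whole list. The window at 100 to 101 Mb followed with 37 (26.1 to 51.0), and these intervals overlap. Which window came first depended on the counting: with windows shifted by 0.5 Mb it was 99.5 to 100.5 Mb with 36 peaks, and over the stronger peaks alone, those at or above the list's median −log10 p, it was 100 to 101 Mb with 24. The 6 next were 1 to 2 Mb and 150 to 151 Mb with 28 each, 5 to 6 Mb and 99 to 100 Mb with 26 each, 75 to 76 Mb with 25, and 0 to 1 Mb with 22.

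Crowded windows lay both side by side and apart. The window at 75 to 76 Mb, with 25 peaks, lay between windows of 8 and 7. There were 11 runs of at least 2 neighbouring windows with 10 or more peaks each. The longest, 99 to 103 Mb, held 93 peaks (8.86% of the chromosome) and 21 of the 192 peaks of fold 10 or more. The run at the start of the short arm, 0 to 3 Mb, held 71 peaks (6.76%) and 24 of fold 10 or more (12.5%). At the other end, the last 3 Mb of the long arm held 20 peaks and 4 of fold 10 or more. The runs at 72 to 74, 128 to 131 and 150 to 152 Mb held 54, 53 and 45 peaks, with 9, 7 and 7 of fold 10 or more.

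Crowding and strength differed between windows. The window at 73 to 74 Mb had a median fold of 5.43 and 3 peaks of fold 10 or more among its 40. The window at 2 to 3 Mb had a median fold of 10.8 and 11 such peaks among its 21, as many as the window at 100 to 101 Mb had among 37. The window at 151 to 152 Mb had 17 peaks and none of fold 10 or more. These windows were picked after their values were seen.

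A difference between the arms in peaks per Mb was not resolved, while the short arm had more peaks per coding gene than the long arm. The arms were divided at the longest peak-free stretch, taken here to hold the centromere. The short arm held 408 peaks over 56.1 Mb (7.27 per Mb, 95% interval 6.59 to 8.02) and the long arm 642 over 94.6 Mb (6.78, 6.27 to 7.33). The ratio was 1.07 with an exact interval of 0.945 to 1.22, which includes equal density, and without the first 3 Mb of the short arm, a choice made after the counts were seen, it was 0.934 (0.816 to 1.07). Per 100 coding genes, with arms assigned from the RefSeq gene order, the short arm held 135.1 peaks over 302 genes and the long arm 100.9 over 636, a ratio of 1.34 (1.18 to 1.52). The long arm carries 24 olfactory and taste receptor genes and the short arm 0 by symbol. Without these genes the ratio was 1.29 (1.13 to 1.46). Both ratios per coding gene were also chosen after the counts were seen. Neither was computed without the first 3 Mb of the short arm.

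No difference in peak strength between the arms was resolved. The median fold was 6.47 on the short and 6.38 on the long arm, and the median pileup was 15 on each. The fold was at least 10 at 76 peaks (18.6%) and 116 peaks (18.1%), a ratio of 1.03 (0.762 to 1.39). It was at least 20 at 10 peaks on each arm, a ratio per peak of 1.57 whose interval of 0.588 to 4.21 leaves the direction unknown.

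The longest stretch without a peak was 7.85 Mb, chr7:56174220-64023121, where the arms were divided. It accounts for 7 of the 29 empty windows. The next was 4.22 Mb on the short arm, chr7:50603306-54826836. On the long arm the longest were 3.08 Mb, chr7:69063525-72147872 and 2.99 Mb, chr7:108210428-111201995. The list does not show whether such stretches could be mapped, so their lack of peaks was not tested as lack of binding.

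The strongest site of the chromosome by −log10 p, pileup and fold, chr7:4681417-4682026, had 115 fragments (95% Poisson interval 94.9 to 138.0) where 0.937 were expected, a fold of 59.88, the highest of the whole list. It stood by itself on the short arm, 40 kb from the nearest summit, in a window of 7 peaks. In the window at 0 to 1 Mb there were 3 strong sites: chr7:766045-766393 with a pileup of 79 and a fold of 39.0, chr7:807264-808423 with 102 and 34.6, and chr7:915763-916374 with 70 and 23.8. The site chr7:45025745-45026742 had a pileup of 86 (68.8 to 106.2) and a fold of 31.3 in a window of 6 peaks. The site chr7:6048395-6049283 had 69 fragments where 0.806 were expected, a fold of 38.8, in a window of 16 peaks. The last of the short arm among the first 10 was chr7:26241062-26242110 with a pileup of 65 and a fold of 26.0.

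On the long arm the strongest site by −log10 p and by pileup was chr7:150759273-150759786 with 95 fragments (76.9 to 116.1) where 2.64 were expected, a fold of 26.4. By −log10 p it was followed by chr7:100450044-100450393 with 69 and a higher fold of 29.1, and by chr7:157197663-157198008 with 63 and 23.8. The site chr7:105925434-105926033 had 66 fragments where 2.64 were expected, a fold of 18.4, and its nearest neighbour was 108 kb away. It ranked 10 by pileup, 13 by significance and 36 by fold on the chromosome.

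The strongest sites lay both alone and in crowds. The sites ranked 20 or better by −log10 p numbered 21, since 2 shared rank 20, and 9 of these were on the short and 12 on the long arm. No other peak lay within 1 kb of 10 of the 21, against 698 of all 1050 peaks of the chromosome. Joined regions of 3 or more peaks held 4 of the 21, against 9.33% of all peaks. Just below the 21 came chr7:100464597-100465001 with a −log10 p of 56.6 against 57.6 for the last of the 21. Over the 21 the pileup ranged from 49 to 115. Of the 21, 9 lay in windows of 20 or more peaks, against 27.9% of all peaks, and 5 in windows of under 10.

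**Figure D2:**
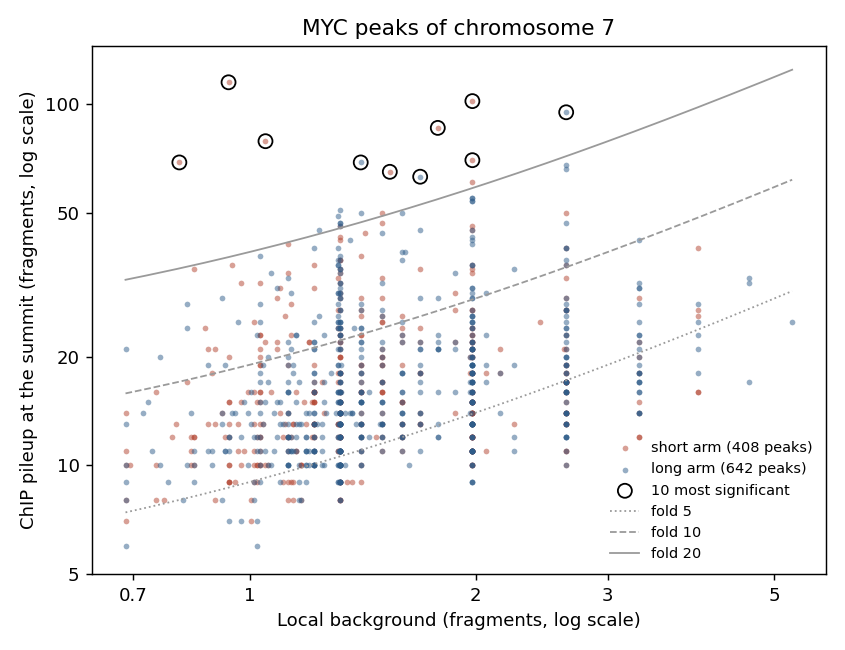
ChIP pileup at the summit against the local background, both in fragments on log scales, for the 408 peaks of the short arm (red) and the 642 of the long arm (blue); rings mark the 10 most significant and lines mark folds of 5, 10 and 20. All 10 ringed sites lie above the line of fold 20, over backgrounds from 0.806 to 2.64.

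Peaks no more than 1 kb apart were joined into 856 regions: 698 of 1 peak, 127 of 2, 27 of 3, 3 of 4 and 1 of 5. The regions of 3 or more made up 3.62% (Wilson 95% interval 2.56 to 5.09), against 3.18% over the whole list. They held 98 peaks (9.33%), and 8 lay on the short and 23 on the long arm. Per region this is a ratio of 0.528, with an interval of 0.204 to 1.22 that includes 1. The window at 150 to 151 Mb had 4 of these regions, and those at 5 to 6, 73 to 74 and 100 to 101 Mb had 2 each. The number depends on the joining distance: 12 at 500 bp and 39 at 2 kb.

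The most crowded region of the chromosome, chr7:116164525-116168418, had 5 peaks within 3894 bp. Its peaks were of moderate strength, with folds of 9.56, 6.36, 10.5, 4.70 and 6.92 in order of position and pileups of 22, 14, 24, 13 and 15. The intervals of these counts overlap, from 6.92 to 22.2 for the lowest to 15.4 to 35.7 for the highest. The region chr7:150065066-150066798 had 4 peaks, a strong pair of folds 15.5 and 16.0 followed by a weak pair of 4.70 and 4.68. The region chr7:23508406-23510992 had folds of 4.67, 7.34, 10.4 and 5.49, and chr7:5466200-5468912 had 5.71, 5.34, 8.22 and 6.96. Whether such neighbours are separate binding sites was not tested.

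Crowded regions held a mixture of strong and weak peaks. The 3 strongest of them were built around sites named above, chr7:766045-767348 (best fold 39.0), chr7:150757695-150760266 (26.4) and chr7:26239439-26242110 (26.0), while chr7:73508448-73509355 had 3 peaks and a best fold of only 4.67. Over single peaks the median fold was 6.39 (quartiles 5.17 and 8.24) in regions of 1 peak and 6.53 (5.28 and 9.31) in regions of 3 or more. The background was 1.32 and 1.39 fragments, and the median pileup was 15 in both. Of the 20 peaks of fold 20 or more, 10 had no neighbour within 1 kb, 7 were in pairs and 3 in larger regions. Of all 1050 peaks, 698 had no such neighbour and 9.33% were in regions of 3 or more.

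The background under the peaks was high along the whole chromosome. In bins of 10 Mb, each with at least 26 peaks, its geometric mean ran from 1.35 (20 to 30 Mb) to 1.63 fragments (130 to 140 Mb). Chromosomes 1 and 17 were set aside after their values were seen. Over each of the other 20, the geometric mean was between 0.963 and 1.10, below every bin of chromosome 7. Of 248 bins with at least 20 peaks on other chromosomes, 15 reached the lowest bin of chromosome 7, and all 15 were on chromosome 1 (11) or 17 (4). The mean was 1.45 on the short and 1.54 on the long arm. Only 10 peaks of chromosome 7 (0.952%) sat at the lowest background of the list, 0.683 fragments, against 10.6% on the other chromosomes. These 10 were scattered from 220614 to 149689744 along the chromosome, 4 on the short and 6 on the long arm.

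**Figure D3:**
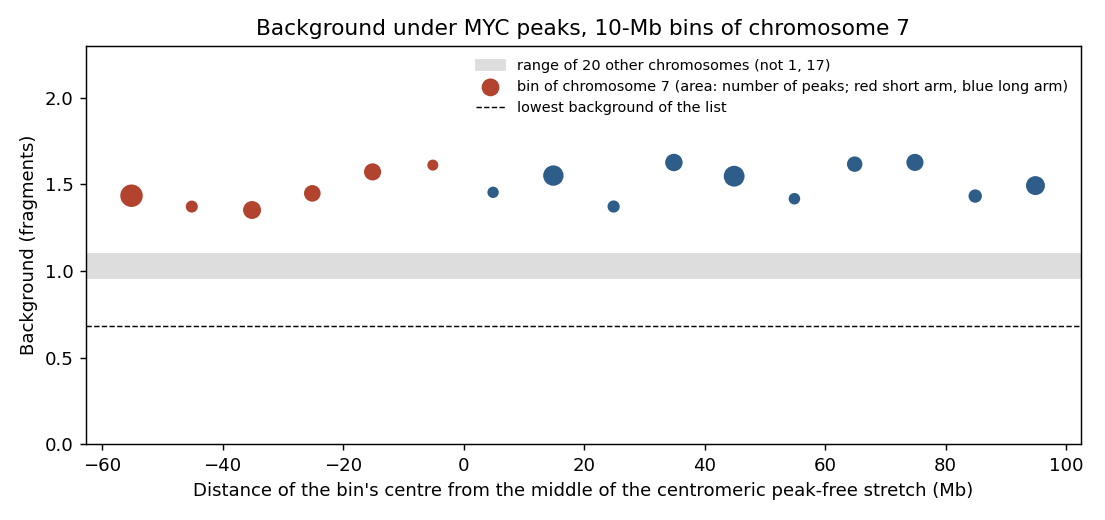
Geometric mean of the background under MYC peaks in 16 bins of 10 Mb, against distance from the middle of the centromeric peak-free stretch; point area is the number of peaks in the bin, red is the short arm and blue the long arm. All bins, 1.35 to 1.63 fragments, lie above the grey band of 20 other chromosomes (0.963 to 1.10) and above the dashed line of the lowest background, 0.683.

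Chromosome 7 had more peaks per gene than chromosomes 6 and 8, which are of similar length. It held 111.9 per 100 coding genes, against 88.8 on chromosome 6 and 98.5 on chromosome 8, ratios of 1.26 (exact interval 1.15 to 1.38) and 1.14 (1.03 to 1.25). Per Mb the ratios were 1.21 (1.11 to 1.33) and 1.37 (1.25 to 1.51). These intervals treat neighbouring peaks as independent, and the ratios per joined region were not computed. Against all other chromosomes together the ratio per coding gene was 1.29 (1.21 to 1.37), and 1 of the 22, chromosome 13 with 112.1, had a higher value. The intervals of several others overlapped that of chromosome 7 (105.3 to 118.9), among them chromosomes 18 (95.4 to 120.5) and 10 (98.2 to 113.1). Per Mb the ratio was 1.11 (1.04 to 1.18), and 8 of the 22 had a higher density.

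High pileups were more frequent than on chromosomes 6, 8 and all others together, by a wider margin than high folds. The pileup was at least 40 at 50 peaks of chromosome 7 (4.76%, 3.63 to 6.22), against 2.22% of the whole list. The share was 2.77 times that on chromosome 6 (1.55 to 5.22), 2.39 times that on chromosome 8 (1.3 to 4.69) and 2.38 times that on all others (1.73 to 3.21). Chromosome 17 had a similar share, 4.84%, and the same median pileup of 15. The median pileup was 12 on chromosomes 6 and 8, and the median background was 1.32 on chromosome 7 against 0.937 on both. For a fold of 10 or more the ratios of the shares were 1.26 (1.01 to 1.59), 1.53 (1.18 to 2.00) and 1.20 (1.03 to 1.39) against chromosomes 6, 8 and all others. The share itself, 18.3%, was below the 20.5% of chromosome 21 and close to the 17.9% of chromosome 17 and 17.8% of chromosome 19. For a fold of 20 or more the ratio to all others was 1.36 (0.813 to 2.14), which includes no difference. The median fold, 6.40, ranked in the middle, with 11 chromosomes above and 10 below. Chromosome 7 thus had both higher pileups and a higher background, and the part of the background in the pileups was not tested. Whether peaks per gene went with the background from chromosome to chromosome was not tested. Chromosome 17 had 102.5 per 100 coding genes over a geometric mean background of 1.34. Chromosome 13 had 112.1 over 1.04, and chromosome 1 had 90.4 over 1.32.

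**Figure D4:**
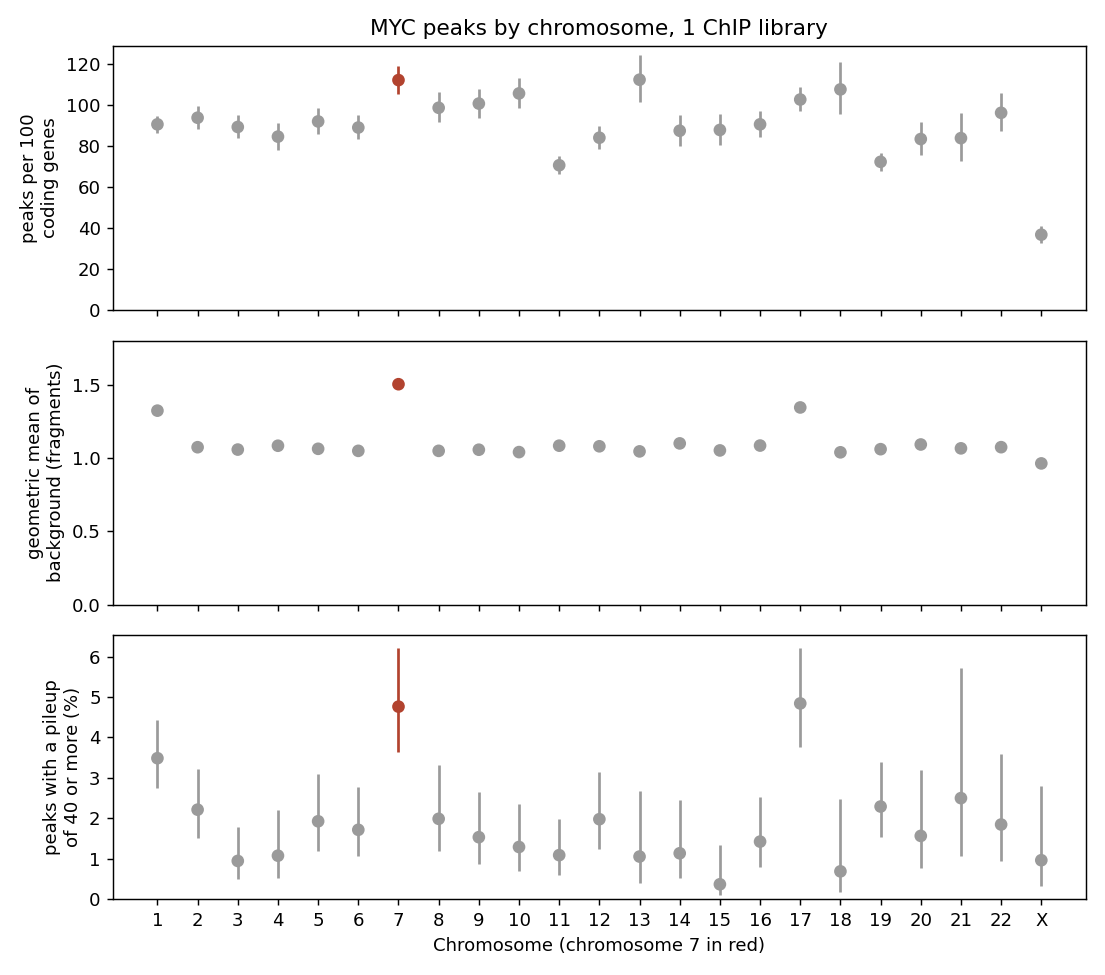
MYC peaks per 100 coding genes (top, bars are Poisson 95% intervals), geometric mean of the background under the peaks in fragments (middle, no error drawn) and percent of peaks with a pileup of 40 or more (bottom, bars are Wilson 95% intervals), for chromosomes 1 to 22 and X. Chromosome 7, in red, has 111.9 peaks per 100 genes, the highest background of the 23 (1.5) and 4.76% of peaks with a pileup of 40 or more, close to the 4.84% of chromosome 17.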

How the data were processed

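MYC binding was read from the authors' deposited peak list of 1 ChIP library in narrowPeak layout. Per the submitters' processing notes, GRCh37, STAR 2.5.2a, SAMtools 1.3, Picard 2.7.1, MACS2 2.1.0 and bedtools were used, with no role given. The rule behind the deposited list's filter is not given in the sources used here. The deposited values used were the fold (a ratio to the local background) and the −log10 p. The deposited score and −log10 q were not used in the results. Total depth is unknown.

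Pileup and background were solved from fold = (pileup + 1) / (background + 1) and the Poisson p of each peak. A whole pileup matched within 0.001 for 100.0% of the chromosome's peaks, and the procedure recovered all of 2883 peaks drawn with known pileup. Those peaks were drawn with the same formula, so their recovery checks the arithmetic only. Windows, bins and arms were assigned by summit, and densities used the span between outermost peaks. Rate ratios have exact conditional 95% intervals, and no test over peaks was run. RefSeq GRCh38.p14 gave coding genes per chromosome and arm (divided at its longest gap between coding genes) and promoter sequences. The sites named are those of highest −log10 p, the regions of 4 or more peaks, the densest windows and the longest peak-free stretches, by position only, since no annotation of their build was used. For the same reason 3 planned results, on gene starts and on motifs in peaks, were not computed. Members, lists and measures were chosen with earlier results of these data known. Python 3.11.15, pandas 2.3.3 and SciPy 1.17.1 were used.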

Additional observations from a re-analysis of the deposited data

How the results depend on the processing

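Values under 19 alternatives were computed. With 7 of them the change was inside the interval, or under 1.5 times for a count, and with 12 it was larger. Of 23 alternatives listed at the outset, 9 were not run, since they need gene starts or sequence of GRCh37. Keeping the 589 peaks at or above the list's median −log10 p lowered the density to 4.08 per Mb on the short arm and 3.80 on the long arm, the densest window to 24 peaks (100 to 101 Mb) and the regions of 3 or more peaks to 5, and raised the empty windows to 44, as fewer peaks were counted. It raised the median fold to 8.10, as the peaks left out were the less significant ones. The arm ratio was then 1.07. With windows shifted by 0.5 Mb, 99.5 to 100.5 Mb came first with 36 peaks. Counting joined regions gave 6.06 and 5.45 per Mb. A joining distance of 500 bp gave 12 regions of 3 or more. Of 3 alternatives for the arm ratio chosen after seeing the data, coding genes as the denominator gave 1.34, coding genes without smell and taste receptors 1.29, and leaving out the first 3 Mb of the short arm 0.934; the cause was not tested. By fold, all 10 strongest sites were the same, and by pileup 8 of 10. No paired analysis was possible because there is 1 ChIP library and 1 input library, and no replicate could be left out. The lowest pileup called was 6 on this chromosome and 5 in the list. Total depth is unknown, so what weaker binding it would miss was not tested.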
